A study of Bubalus bubalis with 6 samples.

Results

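The proteasome is the large protease that degrades proteins marked with ubiquitin, and its subunit genes are described here in buffalo muscle stem cells (MuSCs) in proliferation and in differentiation. Genes were taken by name: all protein-coding genes of the deposited gene table whose symbol starts with PSMA, PSMB, PSMC, PSMD, PSME or PSMG and a digit, other than the immune catalytic subunits PSMB8, PSMB9 and PSMB10. This rule found 44 of the 24616 genes listed, of which 19994 are protein-coding. The rule uses names and no measured values, but it was set with earlier results of these data known. Some genes described singly below were picked by their change or after their values were seen. PSMA2 has no row under that symbol and was not analysed here. The name rule also takes in PSMC3IP, a cofactor of meiotic recombination named after its binding partner and not a part of the proteasome. PSMC3IP is included in the counts, medians and sums over all genes of the rule, and its values are described separately.

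The study compared polyA RNA-seq of 3 samples of proliferating MuSCs (GM samples) with 3 samples of differentiating MuSCs (DM samples). The cells were primary cultures from the longissimus muscle of buffalo fetuses, freed with type I collagenase and trypsin, with no genetic change in either group. GM samples were kept in high-glucose DMEM with fetal bovine serum, and DM samples were moved to differentiation medium with horse serum until myotubes had formed. The labels do not say whether the 3 samples of a group were separate cultures or animals, so p-values measure the spread between these samples, which may be technical.

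The proteasome consists of a barrel, the 20S core, and of caps that feed it. The alpha subunits (PSMA) form the outer rings of the barrel and gate its entrance, and the beta subunits (PSMB) form the inner rings, of which PSMB5, PSMB6 and PSMB7 cut peptide bonds. The 19S cap holds a base ring of ATPases (PSMC), which unfold the substrate and thread it into the barrel, and non-ATPase subunits (PSMD), which bind ubiquitin, remove it and hold the cap together. Alternative activators (PSME) open the barrel without ubiquitin recognition, and dedicated chaperones (PSMG, and PSMD5, PSMD9 and PSMD10 despite their names) assemble the rings. In muscle, the ubiquitin-proteasome system is known for breaking down myofibrillar proteins during wasting and for removing regulators of the cell cycle and of myogenesis.

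Gene counts summed to between 35615864 and 40305237 per sample. The libraries differed in makeup: the 10 genes of highest count held 8.14% to 8.59% of all counts under GM and 16.4% to 18.4% under DM, so levels are given as CPM, read counts scaled to library size and by TMM, edgeR's correction for such a difference. The sample DM3 stood apart: its chi-square over all genes, divided by the degrees of freedom, was 40.5 and 41.4 against the other DM samples, compared with 11.7 between those and 6.22 to 10.6 among GM samples. Of 12 skeletal muscle markers tested, 9 were higher in DM samples, 2 (MYF5 and PAX7) were lower and 1 (DES) did not pass the test, and their summed level was 2825 to 3390 CPM in proliferation and 6303 to 8577 CPM in differentiation. DES alone averaged 2274 CPM in GM samples, most of that sum, and 2051 CPM in DM samples. All 9 fibroblast markers tested were also higher in DM samples. Their summed level was 35506 to 36256 CPM in proliferation and 98013 to 123916 CPM in differentiation. Most of it came from COL1A1, COL1A2 and COL3A1, with means of 15287, 10729 and 8298 CPM in GM samples and 44328, 23420 and 39251 CPM in DM samples. All 12 proliferation markers were lower, with 2779 to 2818 CPM in proliferation and 627 to 729 CPM in differentiation. Markers of adipocytes, endothelial cells and leukocytes stayed low, with summed levels of 6.94 to 8.84, 5.77 to 9.43 and 6.51 to 14.1 CPM over all samples. The part of these marker shifts in the results below was not tested, and in bulk samples fewer cells of a type cannot be told apart from less RNA per cell.

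Most proteasome genes were lower in differentiating MuSCs. Of the 44 genes, 42 had at least 10 counts over the 6 samples and were tested with edgeR's quasi-likelihood test at a Benjamini-Hochberg adjusted p under 0.05 over all 15576 genes tested. Among these 42, 38 fell in DM samples, where 31.4% of all genes tested fell, and 2 (PSME1 and PSME2) rose, where 31.6% of all genes tested rose. PSME4 and PSMG4 did not pass the test. In either direction 63% of all genes tested passed. The same 38 genes had all 3 DM samples below all 3 GM samples, a pattern that 34.3% of all genes tested showed, and the same 2 had all DM samples above, as did 34.5%. The median log2 fold change (DM over GM) was -0.59 over the 42 genes, a fold of 0.664, and 0.03 over all genes tested.

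With a minimum absolute log2 fold change of 1 added to the adjusted p, 3 genes met both conditions, against 25.3% of all genes tested. PSMD3 and PSMC3IP were below the limit, as were 10.3% of all genes tested, and PSME2 was above it, as were 15%. Over the 30 subunits of the 20S core and the 19S cap, all of which fell, the log2 fold change ran from -1.19 to -0.35 with a median of -0.62 and an SD of 0.18 between genes, and the median standard error of a single gene was 0.0642. The median was -0.60 for the 13 subunits of the 20S core and -0.66 for the 17 of the 19S cap. By contrast, the median was -0.37 for the 7 assembly chaperones and 0.52 for the 4 activators. These medians are descriptions, and no test was made of the difference between the groups.

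**Figure D1:**
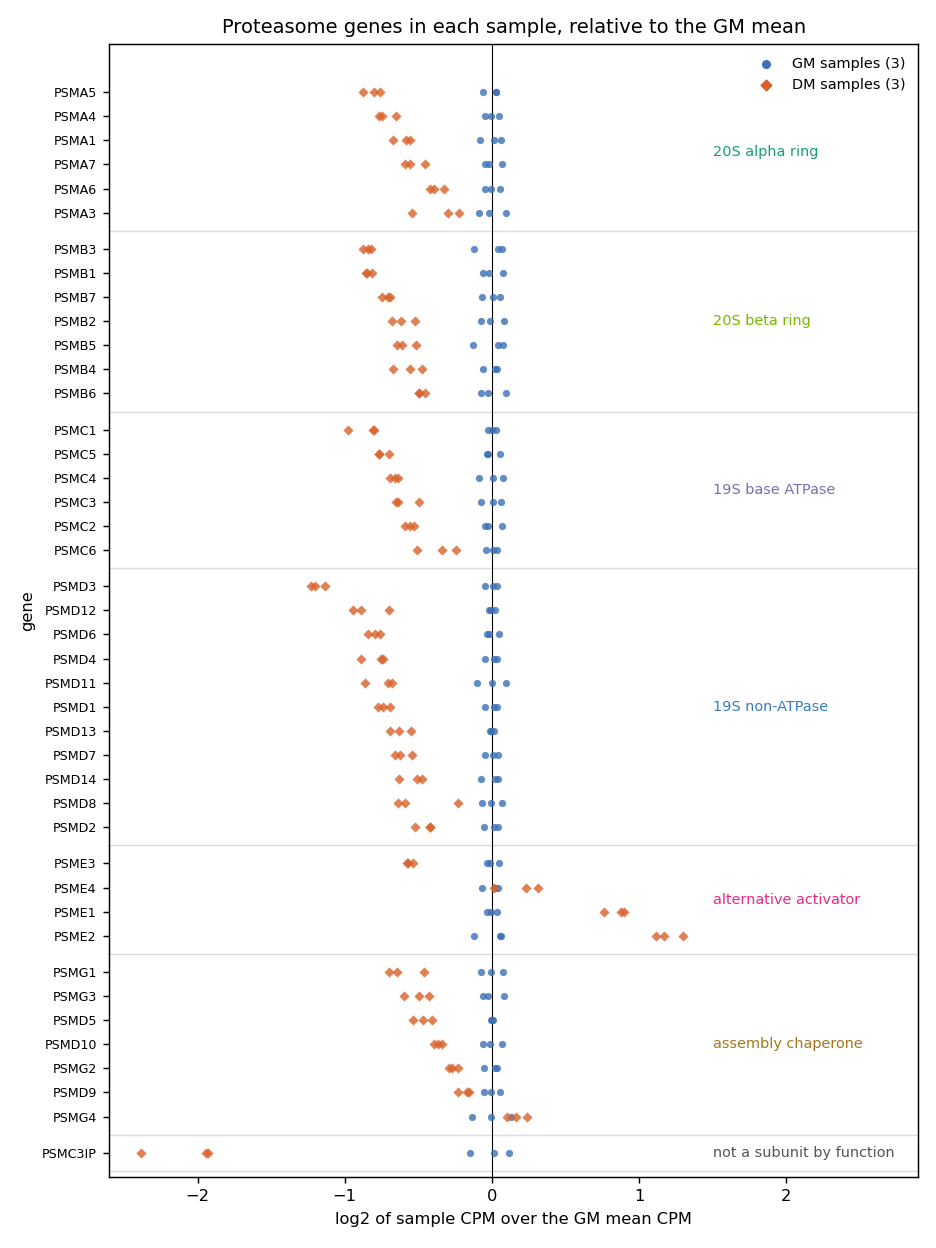
Each row is a tested proteasome gene and each point a sample, placed at the log2 of its CPM over the mean CPM of the 3 GM samples (circles, GM; diamonds, DM), with rows grouped by role and ordered by fitted change. In all 30 rows of the 20S core and the 19S cap the 3 DM points lie left of the 3 GM points, while PSME1 and PSME2 lie right and PSME4 and PSMG4 overlap.

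**Figure D2:**
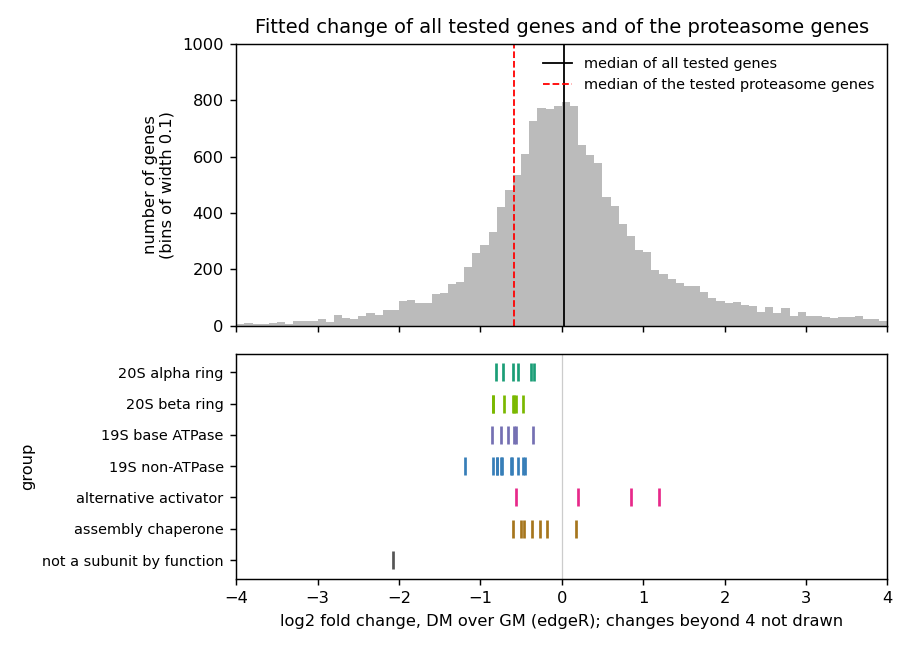
The upper panel counts genes by log2 fold change (DM over GM, bins of width 0.1) for the 15576 genes tested, leaving out 418 beyond 4 on either side, and the lower panel marks each tested proteasome gene by role. The dashed median of the proteasome genes is at -0.59 and the solid median of all genes at 0.03, and the core and cap subunits form a narrow band to the left of 0.

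In the alpha ring of the barrel, all 6 tested subunits fell, with a median log2 fold change of -0.57. PSMA5 fell most (log2 fold change -0.81) and PSMA3 least (-0.35, standard error 0.0916, edgeR adjusted p = 0.00684). PSMA7, the alpha subunit of highest level, had 267, 290 and 272 CPM in GM samples and 184, 187 and 201 CPM in DM samples. The groups did not overlap, and the log2 fold change was -0.53 with a standard error of 0.0631 (edgeR adjusted p = 2.87e-05). Its paralog PSMA8, an alpha subunit of the testis, had 0 counts in all 6 samples, which allows a level of up to 0.0721 to 0.0888 CPM at a floor of 3 counts per library, counting error only.

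All 7 tested beta subunits fell as well, with log2 fold changes between -0.84 and -0.48. PSMB5, which cuts after hydrophobic residues, had 163, 188 and 183 CPM in GM samples and 114, 116 and 125 CPM in DM samples. PSMB6, which cuts after acidic residues, had 117, 132 and 122 CPM in GM samples and 87.6, 87.9 and 90.1 CPM in DM samples. PSMB7, which cuts after basic residues, had 145, 153 and 158 CPM in GM samples and 93.0, 90.6 and 94.1 CPM in DM samples. None of the 3 catalytic subunits overlapped between the groups, and their log2 fold changes were -0.59, -0.48 and -0.71, with edgeR adjusted p of 3.66e-05, 7.25e-05 and 2.35e-06. The structural beta subunit PSMB3 was among the members of largest fall, with 138, 158 and 155 CPM in GM samples and 83.9, 85.0 and 82.0 CPM in DM samples (log2 fold change -0.84, edgeR adjusted p = 1.44e-06). GM1 was the lowest GM sample for PSMB3 and for each catalytic subunit, though still above every DM sample. PSMB11, the beta subunit of the thymus, had 0, 2 and 1 counts in GM samples and 0, 0 and 3 counts in DM samples and was not tested.

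The 6 ATPases of the 19S base fell together. PSMC1 had 235, 243 and 239 CPM in GM samples and 137, 121 and 136 CPM in DM samples, the largest fall of the ring (log2 fold change -0.86, standard error 0.0655, edgeR adjusted p = 1.01e-06). PSMC2 had 132, 130 and 141 CPM in GM samples and 91.0, 88.8 and 92.6 CPM in DM samples. PSMC3 had 267, 293 and 282 CPM in GM samples and 179, 180 and 199 CPM in DM samples. Their log2 fold changes were -0.56 for PSMC2 and -0.59 for PSMC3, both without overlap of the groups. PSMC4 had 122, 131 and 137 CPM in GM samples and 83.4, 80.3 and 82.2 CPM in DM samples. PSMC5 had 180, 192 and 182 CPM in GM samples and 109, 108 and 114 CPM in DM samples. PSMC6 had 107, 104 and 109 CPM in GM samples and 75.1, 90.1 and 84.4 CPM in DM samples. PSMC5 and PSMC4 fell by 0.74 and 0.66 on the log2 scale, while PSMC6 had the smallest change of the ring (-0.36, edgeR adjusted p = 0.00169) and varied among DM samples, with DM1 lowest. PSMC4 shares its interval with FBL, a nucleolar methyltransferase on the opposite strand, which had 10650 to 12894 counts under GM and 3955 to 4419 under DM. The sources do not say whether reads were counted by strand, so reads in the overlap cannot be told apart.

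Among the 11 non-ATPase subunits of the 19S cap, all of which fell, PSMD3 changed most. This scaffold subunit of the lid had 268, 284 and 278 CPM in GM samples and 126, 120 and 118 CPM in DM samples. Its log2 fold change of -1.19 (standard error 0.0592, edgeR adjusted p = 5.39e-08) was the only fall of a core or cap subunit beyond 1, and its interval (chromosome 19, 40961497 to 40974702, plus strand, in the coordinates of the deposited table, which names no build) overlaps no other listed gene. PSMD4, a ubiquitin receptor, had 171, 181 and 178 CPM in GM samples and 106, 95.5 and 105 CPM in DM samples. PSMD11, a lid subunit, had 105, 91.1 and 97.9 CPM in GM samples and 54.0, 59.9 and 61.3 CPM in DM samples. PSMD14, the deubiquitinase of the lid, had 95.9, 88.5 and 94.5 CPM in GM samples and 59.9, 67.0 and 65.2 CPM in DM samples. Each of these 3 was lower in every DM sample, with log2 fold changes of -0.79, -0.75 and -0.54. PSMD2, the scaffold of the base, had the highest CPM of any member and the smallest change of the non-ATPases (615 ± 20.1 to 449 ± 17.7 CPM, SD, n = 3 each, log2 fold change -0.45). PSMD8, another lid subunit, had 280, 307 and 293 CPM in GM samples and 194, 189 and 251 CPM in DM samples, so that DM3 stood well above the other DM samples. Its log2 fold change was -0.47 (edgeR adjusted p = 0.0019), and -0.61 without DM3.

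Of the 4 alternative activators, PSME1 and PSME2 rose, PSME3 fell by an amount within the range of the core and cap subunits, and PSME4 did not pass the test. PSME1, the alpha subunit of the PA28 activator of the cytoplasm, had 74.2, 77.8 and 75.7 CPM in GM samples and 141, 139 and 129 CPM in DM samples. PSME2, its beta subunit, had 25.3, 28.6 and 28.7 CPM in GM samples and 59.6, 68.0 and 62.0 CPM in DM samples. Both rose without overlap of the groups, by log2 fold changes of 0.85 (standard error 0.0628) and 1.20 (standard error 0.0812), with edgeR adjusted p of 8.58e-07 and 4.42e-07. PSME3, the gamma subunit that forms the nuclear activator, had 115, 110 and 109 CPM in GM samples and 74.8, 75.1 and 76.9 CPM in DM samples, and fell by 0.56 on the log2 scale (edgeR adjusted p = 1.16e-05). PSME4, the large single-chain activator PA200, had 67.8, 63.9 and 68.9 CPM in GM samples and 67.7, 83.0 and 78.6 CPM in DM samples. DM1 lay within the GM range for PSME4, and its log2 fold change of 0.19 did not pass the test (edgeR adjusted p = 0.0612). Without DM1 it was 0.28 with an edgeR adjusted p of 0.00796, and without DM3 0.18 with 0.0484. With all 6 samples, the edgeR adjusted p was 0.0478 under edgeR's own count filter. It was 0.0197 with only genes reaching an RPKM of 1 in over 50% of samples, and 0.365 with library size alone. The call on PSME4 thus rests on which samples and genes are kept.

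PSME1 and PSME2 are neighbours on chromosome 10 of the deposited coordinates, at 20846749 to 20849410 on the minus strand and at 20838545 to 20841805 on the plus strand, 4943 bases apart. On the same chromosome PSMB5, which fell, lies at 21658161 to 21663680. Chromosome 10 held 7 of the 44 genes (15.9%, against 4.52% of protein-coding genes) and chromosome 19 held 8 (18.2%, against 5.59%), and the members were spread over 19 chromosomes in all.

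Of the 7 assembly chaperones, 6 fell and PSMG4 did not pass the test. PSMG1, which forms a heterodimer with PSMG2 that seeds the alpha ring, had 37.5, 39.3 and 41.6 CPM in GM samples and 25.2, 24.3 and 28.7 CPM in DM samples. PSMG2 had 33.9, 32.0 and 33.5 CPM in GM samples and 27.5, 28.3 and 27.1 CPM in DM samples. The partners fell by different amounts, with log2 fold changes of -0.60 (standard error 0.0839) and -0.26 (standard error 0.0687), and the difference between them was not tested. PSMG3, which pairs with PSMG4 as another alpha-ring chaperone, had 15.5, 17.1 and 15.8 CPM in GM samples and 12.0, 11.4 and 10.6 CPM in DM samples, and fell by 0.51 on the log2 scale (edgeR adjusted p = 0.00104). PSMG4 had 59.8, 71.8 and 65.4 CPM in GM samples and 77.6, 73.8 and 70.4 CPM in DM samples. GM2 lay inside the DM range for PSMG4, and the log2 fold change of 0.17 did not pass the test (edgeR adjusted p = 0.0835, but 0.0184 without DM3 and 0.0324 without GM2). With only genes reaching an RPKM of 1 in over 50% of samples, PSMG4 passed (edgeR adjusted p = 0.0241). The 3 chaperones of the ATPase ring fell: PSMD5 by 0.47, PSMD10 by 0.37 and PSMD9 by 0.18 on the log2 scale. The fall of PSMD9 was the weakest of all 38 (edgeR adjusted p = 0.0304), and its call was lost without GM1, GM2 or DM2, with adjusted p of 0.0695, 0.0996 and 0.1 (edgeR), as well as with DESeq2 (0.0506), with only genes reaching an RPKM of 1 in over 50% of samples (edgeR, 0.101) and with the replicate number as a term in the model (edgeR, 0.0637).

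PSMC3IP had the largest change of any gene the name rule took in. It had 21.5, 25.7 and 24.0 CPM in GM samples and 6.16, 4.54 and 6.24 CPM in DM samples, with no overlap. The log2 fold change was -2.07 (standard error 0.137, edgeR adjusted p = 3.66e-07). It overlaps MLX on the opposite strand, which had 1043 to 1113 counts under GM and 816 to 889 under DM. The median over the 30 core and cap subunits given above does not include it.

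Summed over all 44 genes, the proteasome genes held 0.603%, 0.620% and 0.625% of gene counts in GM samples and 0.376%, 0.394% and 0.401% in DM samples, a ratio of 0.633 between the means. Since a few genes held a larger share of the DM libraries, the ratio was taken again without the 50 genes of highest mean count, and was 0.709. On the TMM scale the sum fell from 5956 ± 122 to 4035 ± 93.1 CPM (SD, n = 3 each). By role, the summed CPM of DM samples over GM samples was 0.672 for the alpha ring, 0.637 for the beta ring, 0.636 for the ATPases, 0.633 for the non-ATPases, 0.852 for the assembly chaperones and 1.25 for the activators. These sums weigh genes of high count most, such as PSMD2 among the non-ATPases. The median fold over the genes of a role was 0.674 for the alpha ring, 0.657 for the beta ring, 0.647 for the ATPases and 0.601 for the non-ATPases, and no test was made of the differences between these groups.

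Levels of different genes can be compared only per length, and deposited RPKM (reads scaled by gene length and library size) was used for this. Over the 30 core and cap subunits, PSMB4 was highest with 320 ± 10.5 RPKM in GM samples and 202 ± 16.5 in DM samples, followed by PSMA7 (302 ± 12.3 and 195 ± 11.0). PSMB4 and PSMA7 did not differ beyond their spread in DM samples. PSMD8 (257 and 173 RPKM) and PSMD2 (217 and 148 RPKM) came next in both groups, and PSMD11 was lowest with 53.1 ± 3.85 and 29.6 ± 2.41 RPKM. The highest level was 6.02 times the lowest in GM samples and 6.83 times in DM samples. The order was largely kept: 9 of the 10 highest subunits in GM samples were among the 10 highest in DM samples, and the rank correlation of mean RPKM between the groups was 0.954 (Spearman, n = 30 genes, a description over genes of the same libraries). The largest move was that of PSMD3, from rank 15 to rank 23. Neither level nor length ordered the changes. The rank correlation of the log2 fold change was 0.0536 with the log2 of mean RPKM and -0.124 with gene length (Spearman, n = 30 genes).

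**Figure D3:**
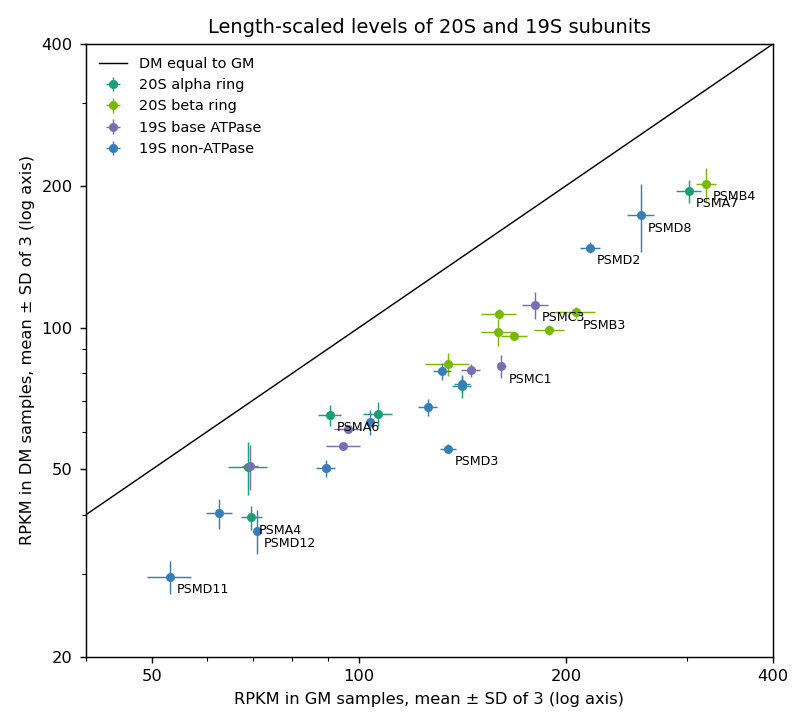
Mean RPKM of each 20S and 19S subunit in DM samples against GM samples on log axes, with bars of 1 SD over 3 samples and the line of equal levels. All 30 subunits lie below the line, in an order of levels close to that of GM samples, with PSMB4 and PSMA7 at the top, PSMD11 at the bottom and PSMD3 farthest below its neighbours.

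The samples of a group were close to each other across the complex. Log2 CPM of each of the 30 core and cap subunits was centred on its mean over the 6 samples. The median over these subunits was 0.30, 0.34 and 0.35 in GM samples and -0.36, -0.32 and -0.31 in DM samples. Over all genes tested, the median lay between -0.0101 and 0.00586, there with a small constant added to CPM before the log. GM1 was the lowest GM sample for 19 of the 30 subunits, DM1 was the lowest DM sample for 15, and DM3 was the highest DM sample for 16. Without DM3, which stood apart over all genes, 38 members fell (32.9% of all genes tested fell) and 4 rose (33.9% rose), the added calls being PSME4 and PSMG4, and the median over the members was -0.61.

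The mRNA transcript table listed 47 transcripts of the 44 genes, with more than 1 transcript for PSME2, PSMD4 and PSMD11 only. Of 45 transcripts tested by edgeR, 40 fell (32.3% of all 16352 transcripts tested fell) and 3 rose (32.3% rose). No transcript differed from its gene by more than 0.0263 in log2 fold change. The transcripts of PSME2 rose by 1.18 and 1.20, those of PSMD4 fell by 0.81 each and those of PSMD11 by 0.77 each on the log2 scale, and since transcripts of a gene share reads these are not independent values.

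The immune catalytic subunits, which the name rule leaves out, take the place of the standard ones in the immunoproteasome, and they moved the other way. PSMB8, the counterpart of PSMB5, had 0.627, 0.913 and 0.949 CPM in GM samples and 18.3, 16.7 and 12.3 CPM in DM samples. PSMB9, the counterpart of PSMB6, had 0.217, 0.433 and 0.844 CPM in GM samples and 2.25, 2.35 and 1.65 CPM in DM samples, from 9 to 32 counts per GM library. PSMB10, the counterpart of PSMB7, had 9.52, 10.6 and 10.9 CPM in GM samples and 40.8, 36.8 and 44.1 CPM in DM samples. All 3 rose without overlap, by log2 fold changes of 4.25 (standard error 0.215), 2.07 (0.421) and 1.98 (0.0940), with edgeR adjusted p of 5.77e-08, 0.00142 and 4e-08. PSMB8 and PSMB9 were lowest in DM3 among DM samples, and PSMB10 was highest there. Together the immune subunits rose from 11.6 to 58.4 summed CPM while the standard ones fell from 453 to 299.

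On the RPKM scale the immune subunits remained below their standard counterparts in every sample. PSMB8 was 0.586 ± 0.0876% of PSMB5 in GM samples and 17.0 ± 4.07% in DM samples. PSMB9 was 0.432 ± 0.282% of PSMB6 in GM samples and 2.53 ± 0.495% in DM samples. The GM samples of PSMB9 varied, with 0.199%, 0.353% and 0.746% of PSMB6, and its log2 fold change of 2.07 was 2.67 without GM3. PSMB10 was 6.50 ± 0.171% of PSMB7 in GM samples and 41.9 ± 2.98% in DM samples (SD, n = 3 each). Among the activators, PSME1 went from 64.3 ± 3.03% to 170 ± 10.9% of PSME3, PSME2 from 25.9 ± 2.54% to 87.4 ± 6.24% and PSME4 from 8.03 ± 0.389% to 13.5 ± 1.35%. Each of these 6 ratios was higher in all 3 DM samples than in all GM samples, with an exact two-sided permutation p of 0.1 (0.1 after Benjamini-Hochberg adjustment over the 6), the smallest that 3 samples against 3 can give. PSME1 was thus below PSME3 in every GM sample and above it in every DM sample. Of the leukocyte markers beside these values, PTPRC and CD3E had too few counts to be tested, CD14 rose (0.897 to 1.30 CPM under GM, 4.78 to 9.92 CPM under DM), CD68 fell and the other 4 did not pass the test.

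**Figure D4:**
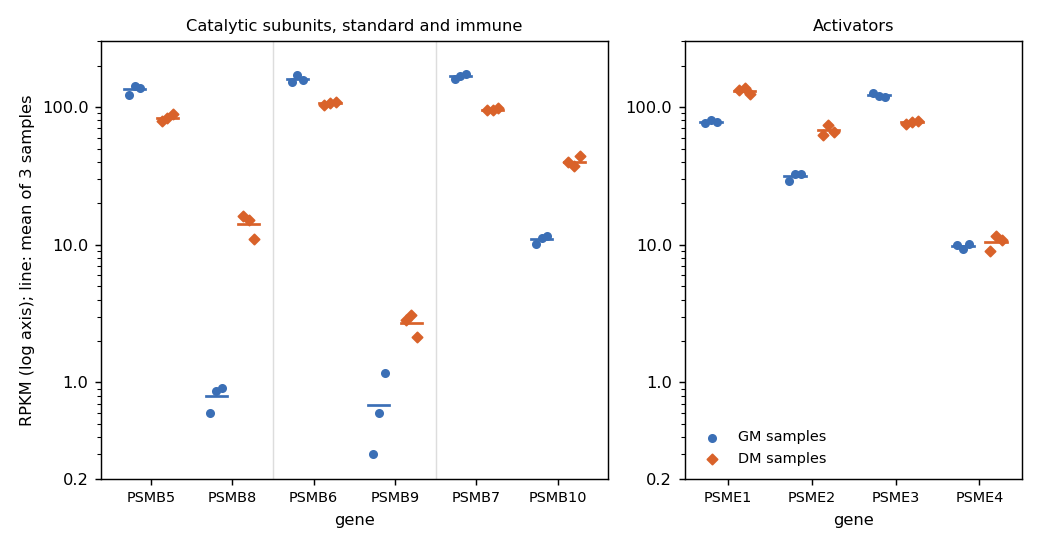
RPKM on a log axis of the standard catalytic subunits beside their immune counterparts (left) and of the activators (right), with a point for each sample (circles, GM; diamonds, DM) and a line at the mean of 3. PSMB5, PSMB6, PSMB7 and PSME3 are lower in DM samples and PSMB8, PSMB9, PSMB10, PSME1 and PSME2 higher, with PSMB10 nearest to its counterpart at 41.9% of PSMB7 in DM samples.

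Beside the members, 42 genes of 4 lists around the proteasome were tested, and 7 rose, 19 fell and 16 did not pass the test, with a median log2 fold change of -0.21. Over all genes tested 31.6% rose and 31.4% fell, and the counts of each list below are read beside these shares. In the list of alternative and accessory subunits, the immune subunits rose as given above, ADRM1, a ubiquitin receptor of the 19S cap, and SEM1, a small lid subunit listed as SHFM1, fell, and PSMF1, an inhibitor of the 20S core, did not pass the test. ADRM1 had 149, 164 and 154 CPM in GM samples and 86.5, 86.2 and 90.6 CPM in DM samples (log2 fold change -0.83, edgeR adjusted p = 9.72e-07). SEM1 had 82.1, 98.1 and 88.0 CPM in GM samples and 62.3, 64.1 and 68.8 CPM in DM samples (log2 fold change -0.46, edgeR adjusted p = 0.000468). The row listed as SHFM1 has a length of 213 bases in an interval of about that size. It may thus be a copy without introns, and reads shared with another copy cannot be told apart. The changes of ADRM1 and of this row lay within the range of the 30 members of the core and cap. PSMF1 had 44.7, 47.2 and 46.6 CPM in GM samples and 49.7, 46.7 and 47.0 CPM in DM samples (log2 fold change 0.05, edgeR adjusted p = 0.528), and its direction turned with library size alone as the scale (-0.05).

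Of 11 tested assembly and proteasome-bound factors, 5 fell and 6 did not pass edgeR's test, where 31.4% of all genes tested fell. All 11 had a log2 fold change below 0, as did 48.7% of all genes tested. POMP, the maturation factor of the beta ring, had 77.7, 81.9 and 80.7 CPM in GM samples and 56.3, 66.0 and 67.7 CPM in DM samples (log2 fold change -0.34, edgeR adjusted p = 0.00325). USP14, a deubiquitinase bound to the cap, had 115, 106 and 111 CPM in GM samples and 68.4, 73.8 and 67.9 CPM in DM samples (log2 fold change -0.66, edgeR adjusted p = 7.51e-06). UCHL5, the other deubiquitinase bound to the cap, had 54.8, 54.7 and 55.6 CPM in GM samples and 43.4, 53.7 and 47.3 CPM in DM samples. UCHL5 was lower in every DM sample, but its log2 fold change of -0.19 did not pass the test (edgeR adjusted p = 0.0624, but 0.0112 without DM2). ZFAND2A, a stress-induced cap-binding protein, had the largest change of the list, at 6.63 ± 0.484 CPM in GM samples and 2.81 ± 0.528 CPM in DM samples (log2 fold change -1.24, edgeR adjusted p = 0.000126). The other 2 that fell, named after their values were seen, were KIAA0368 (ECPAS), a proteasome adaptor, at -0.40 and UBE3C, a ubiquitin ligase of the proteasome, at -0.43.

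Of 10 genes known to take part in the transcriptional control of subunit genes, NFE2L1 and NFE2L2 rose, MAFF and KEAP1 fell and 6 did not pass the test. NFE2L1, the factor that induces subunit genes when proteasomes are inhibited, had 469, 442 and 448 CPM in GM samples and 619, 586 and 618 CPM in DM samples (log2 fold change 0.42, edgeR adjusted p = 9.28e-05). NFE2L2, the oxidative stress factor, had 59.4, 49.5 and 61.4 CPM in GM samples and 79.8, 84.8 and 80.4 CPM in DM samples (log2 fold change 0.52, edgeR adjusted p = 0.000306). Both were higher in every DM sample. MAFF, a small MAF partner of these factors, fell from 16.6 ± 0.546 to 7.55 ± 1.24 CPM (log2 fold change -1.13), and KEAP1, the adaptor that targets NFE2L2 for degradation and was named after its values were seen, fell by 0.52 on the log2 scale. These are RNA levels, and both NFE2L proteins are known to be controlled mainly through their stability.

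Of 15 tested genes for ubiquitin, E1 enzymes and shuttling factors, 10 fell, 2 rose and 3 did not pass edgeR's test, and the 2 that rose were the ubiquitin genes UBB and RPS27A. UBB had 478, 499 and 506 CPM in GM samples and 601, 532 and 588 CPM in DM samples (log2 fold change 0.21, edgeR adjusted p = 0.0148). The rise of RPS27A, which joins ubiquitin to a ribosomal protein and was named after its values were seen, was 0.21. Neither gene passed the test without GM1 (edgeR adjusted p = 0.0627 for UBB and 0.0516 for RPS27A) or with library size alone as the scale (0.119 for each). VCP, the ATPase that extracts ubiquitylated proteins, had 923, 904 and 919 CPM in GM samples and 500, 485 and 488 CPM in DM samples, the largest change of the list (log2 fold change -0.90, standard error 0.0550, edgeR adjusted p = 2.16e-07). Its cofactor NSFL1C fell from 103 ± 8.96 to 61.5 ± 3.92 CPM (log2 fold change -0.74), and UBA1, the main ubiquitin-activating enzyme, fell by 0.74 on the log2 scale as well.

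**Figure D5:**
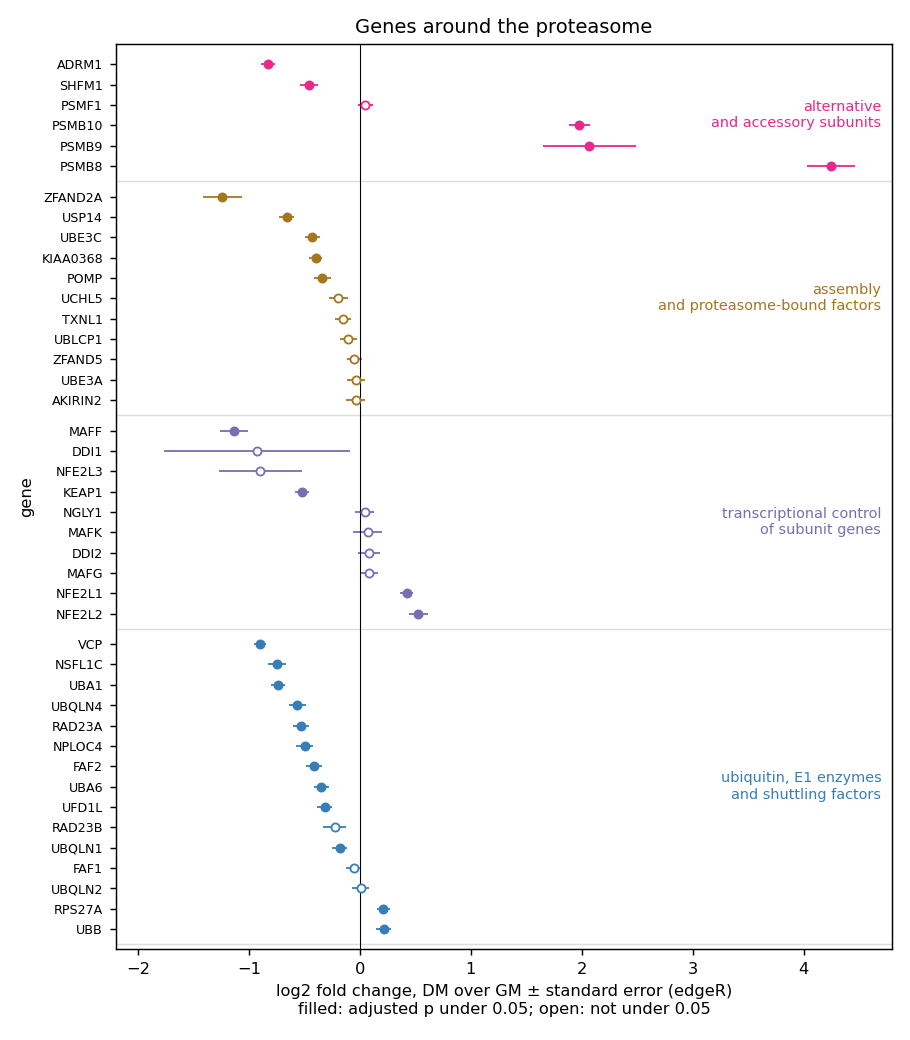
Log2 fold change (DM over GM, edgeR) with its standard error for 42 genes around the proteasome, grouped by list, with filled points for an adjusted p under 0.05. PSMB8 lies at 4.25, ADRM1 at -0.83, VCP at -0.90, NFE2L1 at 0.42 and UBB at 0.21.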

How the data were processed

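Buffalo MuSCs in 3 GM samples and 3 DM samples were profiled by polyA RNA-seq. The authors aligned reads with HISAT2 and deposited raw counts and RPKM per gene and per mRNA transcript. The deposited RPKM equal counts divided by gene length and by the sample's total gene count, on the usual scale. The study names a buffalo assembly, but the tables carry cattle Ensembl identifiers and no build, and the submitters' processing notes name Bowtie 0.12.2 with mm8 and mm9. The counter and its use of strand are not given in the sources used here, and subunits with near-identical copies could share reads. The deposited tables of the authors' own comparisons (fold changes and p-values) and the non-coding table were not used.

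Counts were tested with edgeR 4.0.16 in R 4.3.3 (quasi-likelihood, TMM), on 15576 genes with at least 10 counts over the 6 samples, with Benjamini-Hochberg adjustment over all genes. The procedure was tested on simulated data in which few genes changed, whereas 63% of genes tested were called here. That simulation does not show how the test behaves with changes this broad. Standard errors were not taken from the fit but derived as the absolute log2 fold change divided by the square root of the test's F statistic. Totals were 35615864 to 40305237 counts per sample, and the floor is 3 counts per library. Groups follow the sample titles. Per-sample values were set to be given for the catalytic subunits, ATPases, activators, PSMG chaperones, PSMA7, PSMA8, PSMD4, PSMD11, PSMD14, the 4 largest rises and 4 largest falls, and chosen genes of 4 pathway lists with the 2 largest changes of each. PSMD2, PSMD8, PSMD9 and PSMA3 were added after their values were seen. Some genes of the pathway lists are not reported here. The members and lists were chosen with earlier results of these data known. Alternatives were DESeq2 1.42.0, other scalings and filters, a replicate block and leaving out each sample.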

Additional observations from a re-analysis of the deposited data

How the results depend on the processing

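Under 14 alternatives to the edgeR fit, 39 of 42 tested members kept their call and all 42 kept their sign, and 3 members passed both thresholds throughout. PSMD9 kept its call in 8 of the 14. Members that fell numbered 38, and 37 to 38 with each sample left out. With DESeq2 they numbered 37 (30.1% of all genes fell), PSMD9 losing its call. The same was seen with only genes reaching an RPKM of 1 in over 50% of samples, where 37 members fell (34.8% of all genes). Members that rose numbered 2, but 4 under that RPKM filter (34.9% of all genes rose) and 3 under edgeR's own count filter, PSME4 being added. With each sample left out 2 to 4 rose, 4 being the count without DM3 (PSME4 and PSMG4 added). The median log2 fold change of -0.59 was -0.69 with library size alone, where the median of all genes was -0.07, leaving -0.62 relative to all genes in both fits. It was -0.53 under the RPKM filter, and -0.61 to -0.56 with each sample left out. Transcripts called numbered 43, and 42 to 44 with each sample left out. Without the 50 genes of highest mean count the members held 0.757% of counts under GM and 0.536% under DM. PSMF1 changed sign with library size alone (-0.048, adjusted p = 0.54, edgeR). With library size alone 35.5% of all genes fell and 27.4% rose. Deviations of same-numbered GM and DM samples correlated at -0.0105, -0.0467 and -0.00813, and those of other-numbered samples at -0.0132 to 0.0250. The values thus show no pairing by number. With 3 samples per group they do not settle whether samples of a number share a culture or animal. With the replicate block 37 members fell (30.7% of all genes), PSMD9 losing its call, 2 rose (30.6%), 3 passed both thresholds and 43 transcripts were called, with a median of -0.59. Depth limits the values of PSMA8, PSMB11 and PSMB9, and of DDI1 and NFE2L3 among the control genes, and 3 samples per group limit the calls on PSMD9, PSME4 and PSMG4.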
